A study of Mus musculus with 2 samples.

Results

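A group of 10 genes that p53 controls or that control p53 was followed by name across both libraries of the series, namely Cdkn1a, Mdm2, Ccng1, Trp53inp1, Zmat3, Sesn1, Sesn2, Plk2, Ppm1d, and Trp53 itself. They were picked by symbol as targets that stop the cell cycle or damp p53, and all 10 were found among the 24091 genes of the table. The choice was made with their differences between the libraries known, so those differences are given as a description and support nothing. The series held 2 RNA sequencing libraries from C57BL/6 mice, 1 of sham-irradiated animals (the sham library) and 1 of pelvically irradiated animals (the irradiated library), and the irradiated group received 7.5 Gy and 5 days of radiation, in a wording that does not say whether the dose was daily or total. In both groups gonadal fat was taken 2 months after radiation, dissociated with collagenase, and the floating cells were kept in culture for 3 days. Both sample titles carry Adipocyte and PBS, and the sources used here do not give the age, the sex, or the number of the mice. There were no replicates, so no p-value was computed and no value below has a replicate check.

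The p53 protein is a transcription factor that cells hold at a low level until their DNA is damaged. Its amount is set mostly by how fast the protein is destroyed rather than by how much of its mRNA is made. Once stabilized, p53 switches on genes that halt division, such as Cdkn1a, and at the same time genes whose products pull p53 back down, such as Mdm2, Ccng1, and Ppm1d, so that the response is self-limiting. p53 binds DNA as a tetramer, on a site made of a pair of similar half-sites placed side by side.

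The promoter sequences of the genes were searched for that site. Because the genes were chosen as p53 targets, a site goes with the choice, and the shares given beside the matches are a description. RefSeq promoters of mouse assembly GRCm38.p6, which reach from 250 bases before to 50 bases after a transcript start, were found for 8 of the 10 genes, all but Trp53inp1 and Zmat3. The p53 half-site consensus of 10 bases reads the same on both strands, and a full site was taken as 2 half-sites with no gap and at most 1 mismatch over the 20 bases. Cdkn1a and Ccng1 held a full site, and both are shown here with the 4 central bases of each half-site in capitals.
Cdkn1a full site: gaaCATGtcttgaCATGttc
Ccng1 full site: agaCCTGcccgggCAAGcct
The Cdkn1a match lay at chr17:29090928-29090947 on the plus strand, from -51 to -32 of the first of 2 RefSeq starts, and the Ccng1 match at chr11:40755462-40755481 on the minus strand, from -195 to -176. Neither overlapped a gene or exon of the GENCODE M21 annotation. Of the 27025 genes with a tabulated promoter, 29 held such a site, a share of 0.107%. The 250 bases before each start are printed next to show where the site sits, with the full site in capitals.
Cdkn1a, chr17:29090729-29090978, plus strand: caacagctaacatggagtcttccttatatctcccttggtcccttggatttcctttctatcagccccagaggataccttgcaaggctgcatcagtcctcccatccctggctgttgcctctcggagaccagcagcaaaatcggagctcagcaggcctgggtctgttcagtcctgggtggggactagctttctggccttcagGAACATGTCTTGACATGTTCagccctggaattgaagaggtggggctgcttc
Ccng1, chr11:40755287-40755536, minus strand: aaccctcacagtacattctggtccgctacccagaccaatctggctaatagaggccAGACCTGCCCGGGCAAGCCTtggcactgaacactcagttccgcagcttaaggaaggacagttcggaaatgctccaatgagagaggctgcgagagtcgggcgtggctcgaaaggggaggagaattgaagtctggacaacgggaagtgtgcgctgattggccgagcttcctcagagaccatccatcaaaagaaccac

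A single half-site with no mismatch was present in 6 of the 8 genes, against 9.55% of all genes with a tabulated promoter. Besides Cdkn1a and Ccng1, which each carry one inside the full site, these were the following, with the same 4 bases in capitals.
Mdm2: gaaCTTGcct
Sesn1, second start: aagCTTGttt
Ppm1d: gagCTTGctc
Trp53: ggaCTTGccc
The Mdm2 half-site began at -186, that of Sesn1 at -173 of its second start, that of Ppm1d at -132, and that of Trp53 at -75. Cdkn1a held another half-site, ggaCTAGctt, from -73 to -64. The Sesn1 match lay inside the Sesn1 gene but in no annotated exon, and the others in no annotated gene. Sesn2 and Plk2 held no exact half-site in this window, which says nothing about sequence outside it. The second Cdkn1a start also held none, and its closest full-site match had 5 mismatches. Levels are given per gene and do not tell the starts apart. All the sites shown are matches to letters, and binding was not measured.

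**Figure D1:**
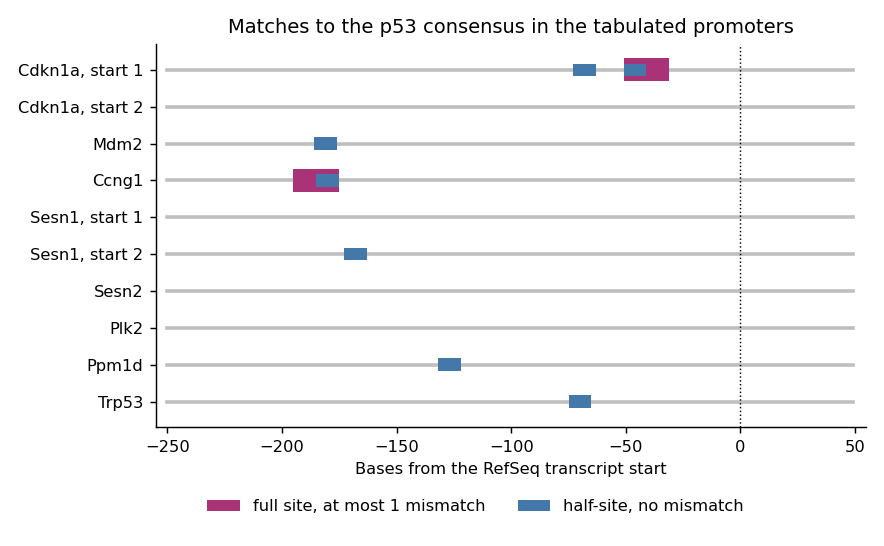
Positions of matches to the p53 consensus in the RefSeq promoters of 8 genes, with bases from the transcript start on the x axis and 1 line per start. Wide bars are full sites with at most 1 mismatch, found in Cdkn1a and Ccng1, and narrow bars are exact half-sites, found in 6 of the 8 genes.

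Levels are given as FPKM, fragments counted per kilobase of a gene and per 1000000 fragments of a library, which allows genes of unequal length to be compared. A difference is the deposited log2(FPKM + 0.1) of the irradiated library minus that of the sham library. It was called higher or lower when it reached 0.5 in size, a ratio of about 1.41, among the 11253 genes that reached an FPKM of 1 in either library (the genes kept). The libraries held about 30600000 and 35000000 fragments, as recovered from the steps between low values, and counting intervals are exact 95% binomial intervals of the fragment ratio, without the added 0.1. They cover counting error only, because 1 library per condition shows no spread between animals or preparations. Copies made by PCR are not independent molecules, so the intervals can be too narrow even for counting error.

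The labelled cell type, adipocyte, was checked first, because the genes described here are active in many kinds of cell. Of 15 mature adipocyte markers, 10 were below an FPKM of 1 in each library, among them Adipoq (0.133 and 0.232) and Plin1 (0.254 and 0.478), and Lep was listed at 0 in the sham library. Among the 5 kept, Fabp4 was at 96.9 in both, and the differences ran from -0.03 for Lpl to 0.45 for Cd36. All 10 fibroblast markers were above 1 in both, led by Col1a1 at 1937 and 1428. Summed over each list, fibroblast markers came to 4897 in the sham and 4067 in the irradiated library, and macrophage markers to 668 and 722. Adipocyte markers came to 295 and 339, led by Cd36 at 117.7 and 160.8. Endothelial markers came to 47.4 and 51.8, mesothelial markers to 35.4 and 51.1, and lymphocyte markers to 3.70 and 1.80. In these bulk libraries, fewer cells of a type and less RNA per cell cannot be told apart.

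Cdkn1a encodes p21, the inhibitor of cyclin-dependent kinases that carries out most of the p53 arrest. It lies at chr17:29090979-29100722, and its FPKM was 51.2 in the sham library and 123.54 in the irradiated library, on 3477 and 9608 fragments. This was a 2.41-fold higher level and a difference of 1.27 (counting interval 1.22 to 1.33). Only 43 of the 11253 genes had a larger difference. In the sham library Cdkn1a already stood above 90.4% of those genes in level, and in the irradiated library it stood above 96.5%.

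Plk2, a polo-like kinase of centriole duplication that p53 can induce, had a similar level in both libraries. Located at chr13:110395044-110400843, it had an FPKM of 62.1 in the sham and 58.8 in the irradiated library. Its difference of -0.08 had a counting interval from -0.13 to -0.03, which lay below 0 and far from the threshold of 0.5. Its level in the sham library was above that of Cdkn1a, and in the irradiated library it was below.

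Mdm2 encodes the ubiquitin ligase that marks p53 for destruction. At chr10:117688875-117710758, it had an FPKM of 34.7 and 61.3 in the sham and irradiated libraries, on 3323 and 6721 fragments. Its level was 1.77-fold higher, with a difference of 0.82 (counting interval 0.76 to 0.88). Mdm4, the Mdm2 relative that masks the activating domain of p53, stood at 9.35 and 9.15, and its counting interval from -0.12 to 0.06 included 0. The ratio of Mdm2 to Mdm4 was 3.71 in the sham library and 6.70 in the irradiated library.

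Ccng1, cyclin G1, which brings a phosphatase to Mdm2 and so favours the loss of p53, was the most abundant of the 10 genes in both libraries. It lies at chr11:40748552-40755286 and had an FPKM of 99.6 and 158.6, on 10607 and 19321 fragments. Its difference of 0.67 had the narrowest counting interval of the group, 0.64 to 0.70. Its relative cyclin G2, Ccng2, stood at 8.78 and 8.47 with a difference of -0.05, so Ccng1 exceeded it by a factor of 11.4 in the sham and 18.7 in the irradiated library.

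Ppm1d encodes the phosphatase Wip1, which removes phosphate groups from p53 and from the kinases that sense DNA damage. At chr11:85311254-85347071, its FPKM was 6.22 in the sham and 7.26 in the irradiated library, on 549 and 734 fragments. The difference of 0.22 had a counting interval from 0.06 to 0.39. That interval lay above 0, but the difference did not reach the threshold that Mdm2 and Ccng1 passed.

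Trp53inp1, a nuclear and autophagy protein that strengthens p53 activity, was the least abundant of the 10 genes in the sham library. Located at chr4:11156441-11174377, it had an FPKM of 4.40 there and 8.65 in the irradiated library, on 858 and 1932 fragments. Its difference of 0.96 was the second largest of the group (counting interval 0.86 to 1.09). Its relative Trp53inp2 was more abundant, at 29.8 and 27.4, with a difference of -0.12.

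Zmat3, an RNA-binding zinc finger protein of the growth-suppressing arm, was at the edge of the call. At chr3:32334794-32365665, it had an FPKM of 9.89 in the sham library and 14.2 in the irradiated library. Its difference of 0.52 was the one just inside the threshold, with a counting interval from 0.45 to 0.60 that runs below it, and it became 0.48 with log2(FPKM + 1). The relatives Zmat2 and Zmat5 both had a difference of 0.00. Zmat3 shares 177 bases with 4930429B21Rik on the opposite strand, whose FPKM was 1.93 and 2.40, and the sources used here do not say whether fragments were counted by strand.

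The sestrins are stress proteins that hold back the growth kinase mTORC1, and the 2 p53-linked members pointed in opposite directions. Sesn2, at chr4:132492807-132510456, had an FPKM of 10.5 in the sham and 12.4 in the irradiated library, and its difference of 0.24 (counting interval 0.11 to 0.37) was the highest of those below the threshold, which its interval did not reach. Sesn1, at chr10:41810574-41908436, had 6.22 and 5.36, and its difference of -0.21 (counting interval -0.37 to -0.05) was the lowest of the 10 genes. Sesn3, a relative known as a target of FoxO factors, stood at 4.13 and 4.53 with a counting interval from -0.10 to 0.37. Added together, the FPKM of the 3 sestrins was 20.8 in the sham library and 22.3 in the irradiated library.

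Trp53, the gene of p53 itself, had nearly the same level in both libraries. At chr11:69580359-69591873, its FPKM was 50.1 and 48.4 on 3599 and 3978 fragments. The counting interval of its difference of -0.05 ran from -0.12 to 0.02, so no difference was detectable at this depth. The relatives Trp63 and Trp73 were near the floor, with 2 and 6 fragments for Trp63 and 1 and 3 for Trp73. The ratio of Cdkn1a to Trp53 FPKM was 1.02 in the sham and 2.55 in the irradiated library, and that of Mdm2 to Trp53 was 0.692 and 1.27.

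**Figure D2:**
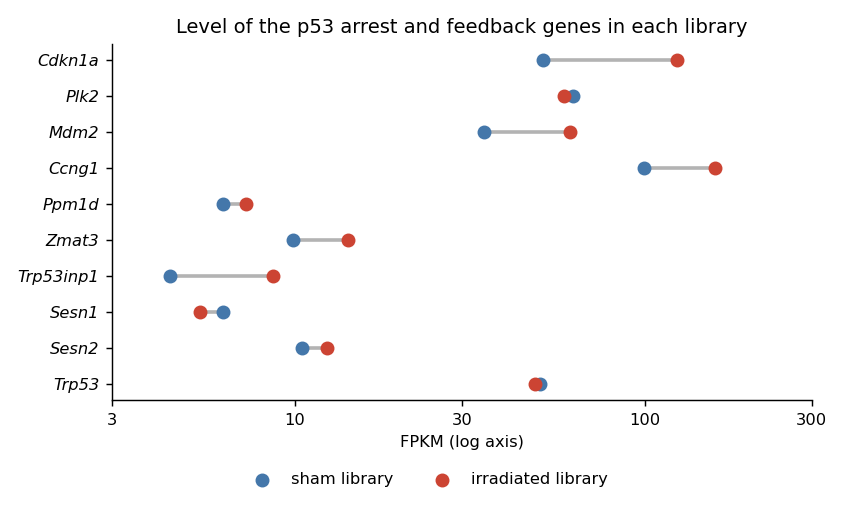
FPKM of each of the 10 genes on a log axis, with 1 point for the sham library and 1 for the irradiated library, joined by a line. The points of Cdkn1a (51.2 and 123.54) lie farthest apart, while those of Trp53 (50.1 and 48.4) nearly coincide.

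**Figure D3:**
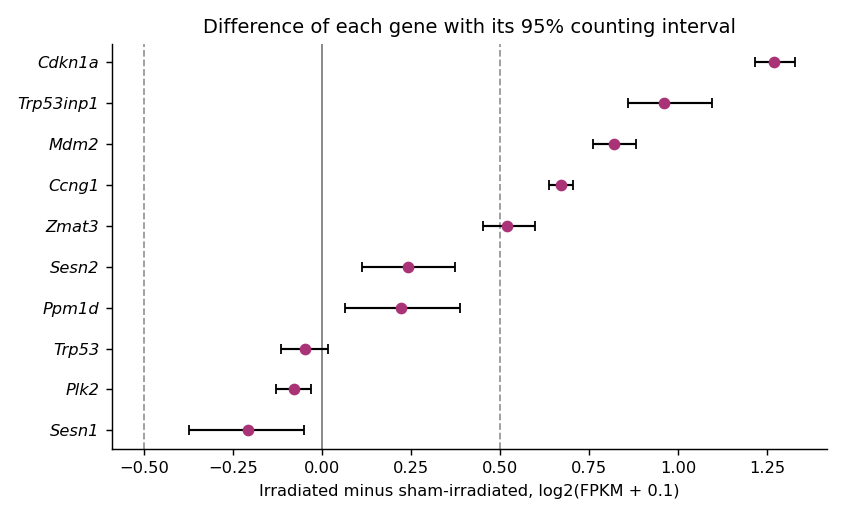
Difference between the libraries on the log2(FPKM + 0.1) scale for each gene, with points for the deposited values and bars for the 95% counting interval of the fragment ratio. Dashed lines mark 0.5 in either direction, and the genes run from Sesn1 at -0.21 to Cdkn1a at 1.27.

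Of the 10 genes, 5 were higher by at least 0.5, namely Cdkn1a, Trp53inp1, Mdm2, Ccng1, and Zmat3, and 0 were lower by that amount. Across all genes kept, 4.31% were higher and 1.44% were lower by the same measure. A difference of at least 1 was reached by Cdkn1a alone among the 10, where 0.791% of all genes kept were higher and 0.373% lower by that amount. Counting intervals lay above 0 for 7 of the 10 genes, against 23.8% of all genes kept, and below 0 for Sesn1 and Plk2, against 17.4%. The median difference was 0.38, and that of all genes kept was 0.02. Since the choice of the genes used this contrast, nothing is read from these counts. Set beside the promoter matches, the genes with a full site, Cdkn1a and Ccng1, had differences of 1.27 and 0.67. Those with a half-site alone ranged from -0.21 for Sesn1 to 0.82 for Mdm2, with 0.22 for Ppm1d and -0.05 for Trp53. Sesn2 and Plk2, with no exact half-site in the window, had 0.24 and -0.08. Trp53inp1 and Zmat3, with no tabulated promoter, had 0.96 and 0.52 and cannot be placed. Nothing is read from this order, because the genes were chosen with these differences known. The genes together took 0.107% of the fragments of the sham library and 0.157% of those of the irradiated library.

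Markers of other cell types also differed between the libraries. Among all genes kept, 4.31% were higher and 1.44% were lower by at least 0.5. Mesothelial markers were higher by at least 0.5 for 8 of 9 genes, Msln being the largest at 2.18, while Wt1 had -0.13, and none was at 0 in either library. Of these 8, 5 (Msln, Upk3b, Krt19, Krt18, and Gpm6a) were below an FPKM of 1 in the sham library and were kept only through the irradiated one, where Msln had 2.71 against 0.520, so the count is no support. Macrophage markers were higher for 4 of 12, with 0.80 for C1qa and -0.11 for Lyz2. Neither fibroblast markers, with 0 of 10, nor endothelial markers, with 0 of 8, held a gene past the threshold. Lists this short would hold few or no such genes at those shares, so nothing is read from these counts of 0. The extremes were 0.40 for Thy1, -0.44 for Col1a1, 0.33 for Emcn, and -0.09 for Cldn5. Of 10 lymphocyte markers 1 was kept, Cd3g, at -0.77. The part of these cells in the differences of the p53 genes, and of the lists that follow, was not tested.

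**Figure D4:**
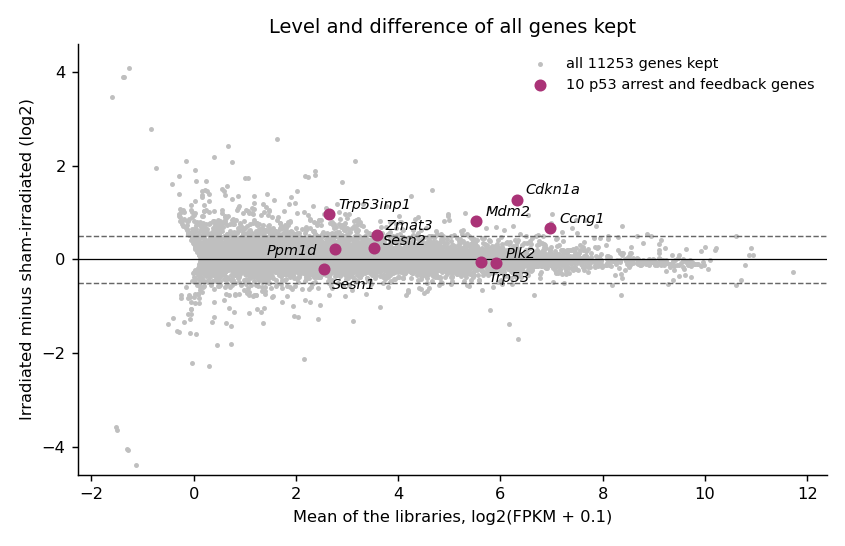
Mean level of each of the 11253 genes kept (x axis, log2(FPKM + 0.1)) against its difference between the libraries (y axis, log2), with the 10 p53 genes named. Cdkn1a, Mdm2, and Ccng1 stand at high levels above the dashed line at 0.5, while Trp53 and Plk2 lie close to 0 at similar levels.

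The other targets of p53 were taken from 3 lists. Their counts stand beside 4.31% higher and 1.44% lower by at least 0.5 among all genes kept. Among 9 further arrest targets kept of 11, 4 were higher by at least 0.5 and none was lower by that much, with a median of 0.40. Gdf15, a stress cytokine, had the largest difference, 0.90, on 72 and 157 fragments. Btg2, an antiproliferative cofactor, had 0.65, and Phlda3, an inhibitor of Akt, had 0.61. Sfn, an epithelial 14-3-3 protein, had 0.57 on only 48 and 84 fragments, and the E2F repressor E2f7 had the lowest value, -0.09. The damage gene Gadd45a had an FPKM of 9.75 and 10.7 and did not reach the threshold.

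Among 12 death targets, 5 were higher and 0 lower, also with a median of 0.40. Perp, a membrane protein of desmosomes, had the largest difference, 1.40, on 38 and 125 fragments. Pmaip1, the BH3-only protein Noxa, had 1.18, and Eda2r, a receptor of the TNF family, had 0.87. Bbc3, the BH3-only protein Puma, was lowest at -0.06 with a counting interval from -0.46 to 0.34. Fas was at 15.1 and 15.6.

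Among 10 repair and metabolism targets kept of 12, 2 were higher and 0 were lower, with a median of 0.24. Ephx1, an epoxide hydrolase, had 0.82 and Polk, a DNA polymerase that copies past lesions, had 0.78. Fdxr, which passes electrons to ferredoxin in mitochondria, had the lowest value, -0.44, with a counting interval from -0.62 to -0.27. Together the 3 lists held 31 genes kept. Of these, 11 were higher by at least 0.5, against 4.31% of all genes kept, and 0 were lower, against 1.44%. By any amount, 27 were above 0, against 53.5%. Of the 11, 2 were kept only through the irradiated library, namely Perp, at an FPKM of 0.653 and 1.89, and Sfn, at 0.972 and 1.49, so these counts are a description.

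The regulators of p53 are the proteins that act on it from above, among them the kinases Atm, Atr, Chek1, and Chek2. Of 16 found, 0 were higher by 0.5, against 4.31% of all genes kept, and 0 were lower, against 1.44%, with a median of -0.03. A list of this length at those shares would hold few or no such genes, so nothing is read from the counts of 0 here and in the next lists. Rchy1, a ubiquitin ligase for p53, was highest at 0.25, and Chek1 was lowest at -0.24. Of 13 paralogs of the 10 genes that were kept, none passed the threshold either, with a median of 0.00 and a range from -0.27 for Cdkn1b to 0.40 for Plk3. The mitotic relatives Plk1 and Plk4 had -0.14 and -0.17. The phosphatases Ppm1a, Ppm1b, and Ppm1g, relatives of Ppm1d, had 0.04, 0.09, and 0.09, and Zmat1 had 0.21. Trp63, Trp73, Ppm1e, and Cdkn1c were under the minimum and not counted. Plk3 is also one of the further arrest targets, and Cdkn1b one of the other inhibitors that follow.

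Other inhibitors of cyclin-dependent kinases ran from 0.04 for Cdkn2d to -0.31 for Cdkn2b. Of 5 kept, 0 passed the threshold in either direction. Counting intervals lay below 0 for 2 of the 5, against 17.4% of all genes kept. They ran from -0.38 to -0.17 for Cdkn1b and from -0.53 to -0.10 for Cdkn2b. Nothing is read from a count over so few genes. The summed FPKM of these 5, with Cdkn1c, was 43.1 in the sham library and 39.9 in the irradiated library. Cdkn1a made up 54.3% of the summed FPKM of the 7 inhibitors in the sham library and 75.6% in the irradiated library.

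Cell cycle genes were well expressed in both libraries, with a median FPKM of 28.1 and 25.5 over 26 genes. Of these, 21 were below 0, against 44.0% of all genes kept, and 5 above, against 53.5%. Their counting intervals lay below 0 for 15, against 17.4%, and above 0 for 2, against 23.8%. The sizes were small, with a median of -0.09 and a lowest value of -0.27 for Mcm5, a subunit of the replicative helicase. Ccnd1, cyclin D1, was the 1 gene past the threshold, where 4.31% of all genes kept were higher by that much. It had 0.74, from an FPKM of 7.01 to 11.8.

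Sesn2 is also known as a target of the integrated stress response, whose genes had a median of -0.155 over 8 genes. Trib3 alone was lower by at least 0.5, at -0.56, where 1.44% of all genes kept were lower by that much. Atf4, the transcription factor of that response, had -0.26. Atf3 was highest at 0.41.

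**Figure D5:**
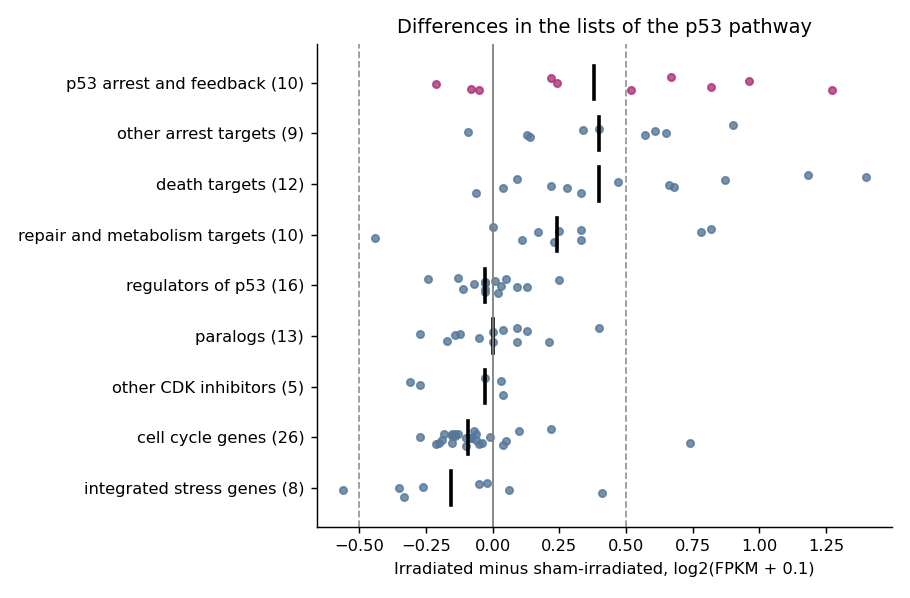
Differences on the log2(FPKM + 0.1) scale of the genes kept in each list, with 1 point per gene, a black bar at the list's median, and the number of genes in brackets. The medians of the p53 target lists lie between 0.24 and 0.40 and those of the regulators, paralogs, other inhibitors, cell cycle genes, and integrated stress genes between -0.155 and 0.00.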

How the data were processed

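Polyadenylated RNA was sequenced from 1 library per condition, with a stranded preparation per the labels. The authors deposited FPKM values on a log2 scale, to 2 decimals and after adding 0.1, with gene coordinates and lengths, and the submitters' processing notes name mm10. The aligner, the counting tool, and any filter were not given in the sources used here. FPKM depends on all other RNA in a library, and the added 0.1 shrinks differences of low genes.

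Samples were assigned from their treatment labels. FPKM was recovered from each value, and the depth as the total that brought FPKM times length closest to whole fragments, within 0.12 for all 2570 and 2518 low genes checked. Both steps were tested on simulated data. Fragments of abundant genes are approximate because of the rounding. Of 23349 symbols matched to RefSeq GRCm38.p6, 17741 shared a chromosome and a start or end, including all 10 genes followed.

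With 1 library per condition, no test was run. The genes, lists, and alternatives were chosen with earlier results of these data known. In each list, the genes with the largest rise and fall were named by rule, and others after their values were seen. The alternatives were log2(FPKM + 1), centring, scaling without the 100 most abundant genes, fragment ratios, no filter, a minimum FPKM of 5, a threshold of 1, and exact promoter matches. Analyses ran in Python 3.11.15 with pandas 2.3.3, numpy 2.4.6, and SciPy 1.17.1, and plots in matplotlib 3.10.9.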

Additional observations from a re-analysis of the deposited data

How the results depend on the processing

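No paired analysis was possible because there was a single library of each condition, and replicates could not be left out. None of the 10 genes changed sign under log2(FPKM + 1), centring, scaling without the 100 most abundant genes, or fragment ratios. Trp53inp1 moved from 0.96 to 0.84 with log2(FPKM + 1), and Zmat3 to 0.48, which left 4 of the 10 genes past 0.5, and the same setting took the further arrest targets past 0.5 from 4 to 3 and the death targets from 5 to 4. Centring shifted every gene by -0.02 and the other scaling by -0.016. With a threshold of 1, the number higher was 1 of the 10 genes (Cdkn1a), against 0.791% of all genes kept, 0 of the further arrest targets, 2 of the death targets, 0 of the repair and metabolism targets, and 0 of the cell cycle genes, and 0 integrated stress genes were lower, because the threshold sets the count. With a minimum FPKM of 5, 2 further arrest targets and 3 death targets were higher, because fewer genes were kept. The share of all genes called with log2(FPKM + 1) or with a minimum FPKM of 5 is not given here. Nothing is read from the counts under these settings. With 0 mismatches, 0 of the 8 promoters held a full site, where 3 of 27025 genes did. A count of 0 on a 1 kb gene allows an FPKM of up to 0.0981 in the sham library and 0.0857 in the irradiated library, at 3 fragments.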

Other observations

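The search for the p53 site was extended, after the Cdkn1a and Ccng1 matches had been seen, to the 8738 other genes kept that had a tabulated promoter. With at most 1 mismatch, 4 of them held a full site, and none of the 4 reached a difference of 0.5. Of the 8738, 3.74% were higher and 1.08% were lower by that much, so nothing is read from this count of 0. The sites of the 4 genes are printed with the 4 central bases of each half-site in capitals.
Gtse1: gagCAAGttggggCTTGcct
Rps27l: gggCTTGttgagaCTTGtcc
Calhm2: gggCAAGcctaggCAAGatc
Mthfd1: aaaCTTGctcagaCAGGccc
Gtse1, a microtubule protein that carries p53 out of the nucleus, had a match at chr15:85859945-85859964 and an FPKM of 17.2 in the sham and 21.8 in the irradiated library, a difference of 0.34. Rps27l, a ribosomal protein relative and known p53 target, had a match at chr9:66946296-66946315 and stood at 163.0 and 193.9, a difference of 0.25. For both, the counting interval lay above 0, as it did for 23.8% of all genes kept. It ran from 0.25 to 0.44 for Gtse1 and from 0.18 to 0.32 for Rps27l. Both genes are also in the lists of other p53 targets above and were counted there. Calhm2, with a match at chr19:47138451-47138470, had a difference of 0.19, and Mthfd1, an enzyme of folate metabolism with a match at chr12:76255090-76255109, had 0.03, and both counting intervals included 0.

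With at most 2 mismatches, 72 genes kept held a match, the 10 p53 genes left out, and their median difference was 0.045, against 0.02 for the 8738 genes kept with a tabulated promoter. Of the 72, 3 (4.17%) were higher by at least 0.5, against 3.74% of the 8738, and 2 (2.78%) were lower, against 1.08%. Nothing is read from these counts. The higher ones were Tnfsf15 at 1.80, Cd80 at 1.78, and Mcf2l at 0.59, and the lower ones Gpam at -0.60 and Mcpt4 at -0.68. All were named after their values were seen. In Tnfsf15 and Mcf2l each mismatch fell on the first or last of the 4 central bases, where the consensus allows a single letter. Tnfsf15 had an FPKM of 2.67 in the sham and 9.55 in the irradiated library, and Cd80, a co-stimulator of T cells, had 2.33 and 8.24.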
